A study of Phaseolus vulgaris with 6 samples.

Results

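Vacuolar iron transporter (VIT) genes were described in developing pods of common bean, in the genotypes Voyager and Albion. The members were taken by identifier, and all 6 of them were found among the 19598 genes listed in the deposited table. No other listed gene had a vacuolar iron transporter annotation. The study reports further VIT genes, some of them expressed in pods with little difference between the genotypes, and these were not analysed here. Both genotypes are navy beans that differ in seed zinc, and the design asks which transporter genes differ in expression between them. Whole pods, with pod wall and developing seed together, were sampled from 3 replicate pots of Voyager and 3 of Albion, with 2 pods ground per replicate. The sample labels give an age of 20 days after anthesis for both genotypes, while the methods give a younger age. The labels name a normal zinc concentration for Voyager and a low one for Albion, with a sufficient zinc supply for both, and the table header names a high zinc treatment. According to the methods, both genotypes received the same fertilization. The cultivars differ across their whole genomes, so the genotypes are not a test of any single gene.

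VIT proteins sit in the membrane of the vacuole and move ferrous iron, and in some members manganese, out of the cytosol for storage. In Arabidopsis, VIT1 is active in developing seeds and places iron around the provascular strands of the embryo, and loss of the gene changes where the iron lies rather than abolishing its storage. A related branch of shorter VIT-like proteins includes nodulin-21 type proteins of legumes. Which branch each bean gene belongs to was not examined here beyond the annotation.

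For each genotype the table gives 1 pooled value per gene in FPKM, a fragment count normalised for the length of the exons and for the size of the library. The pooled values give no spread between replicates, so no error was computed and no test was run on them, and every difference below is a description. The authors' own comparison of the genotypes was not used. The precision of a single FPKM value is unknown because the table carries no counts. FPKM is scaled to exon length, so levels of different genes are set side by side. How well the scaling holds for the shortest genes was not examined. Differences are given on the log2(FPKM + 1) scale as Voyager minus Albion, and this scale understates the change of genes with low values.

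Of the 6 genes, 3 form a group on chromosome 2 of the v1.0 genome. The others lie singly among the members on chromosomes 4, 7 and 8 and are called single copies here. The study places further VIT genes, outside the 6 members, on chromosomes 2 and 8 among others. PvVIT1 (Phvul.002G322800) lies on chromosome 2 from 48170585 to 48172329 and PvVIT2 (Phvul.002G322900) from 48175491 to 48178808, with a gap of 3.16 kb between them. PvVIT3 (Phvul.002G323700) lies from 48252436 to 48253800, 73.6 kb beyond PvVIT2. These 3 genes and PvVIT11 (Phvul.008G070000, chromosome 8, 6284802 to 6287294) carry the annotation vacuolar iron transporter 1, by homology to Arabidopsis. The other 2 genes, PvVIT9 (Phvul.004G096500, chromosome 4, 27416262 to 27416937) and PvVIT10 (Phvul.007G079100, chromosome 7, 7508398 to 7509307), are annotated only as VIT family proteins. The family proteins had the shortest loci, with spans of 676 bp for PvVIT9 and 910 bp for PvVIT10, and the genes annotated as VIT1 spanned 1365 to 3318 bp. None of the 6 loci overlapped another listed gene.

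All 6 genes were above 0 FPKM in both genotypes, at low to moderate levels. Of the 19598 listed genes only 159 were at 0 in a genotype, so being above 0 is common to nearly all of them. PvVIT10 had the highest level, with 37.7 FPKM in Voyager and 28.1 FPKM in Albion. It stood at percentile 79.9 of all listed genes in Voyager and 75.0 in Albion. PvVIT1 had the lowest level, with 1.17 FPKM in Voyager and 1.61 FPKM in Albion, at percentile 7.35 in Voyager and 12.4 in Albion. The median over all listed genes was 11.7 FPKM in Voyager and 11.1 FPKM in Albion, so that PvVIT10, PvVIT2 and PvVIT3 lay above the median in both genotypes, and PvVIT11 and PvVIT1 lay below it in both. Of the 6, PvVIT9 was above the median in Voyager and below it in Albion.

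**Figure D1:**
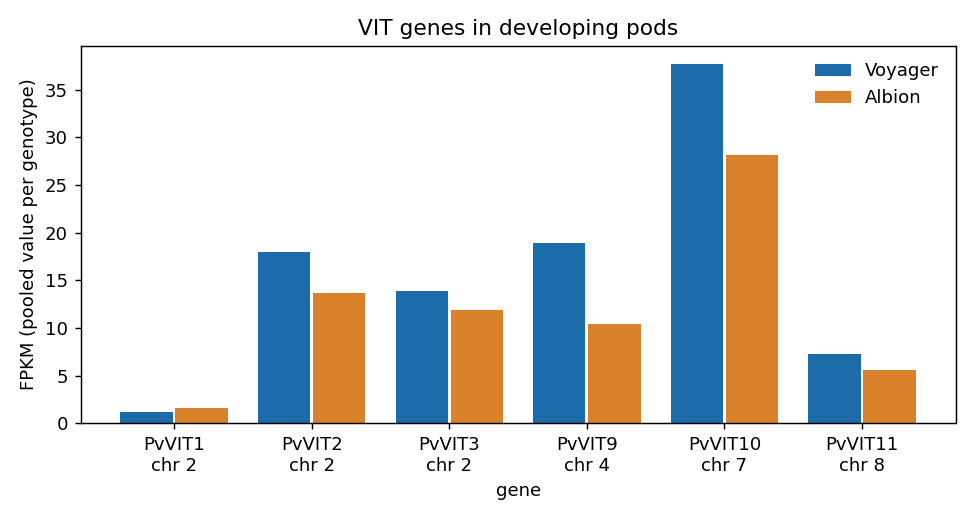
FPKM (vertical axis, 1 pooled value per bar, no error available) of the 6 VIT genes in Voyager and Albion, with the chromosome under each name. PvVIT10 is highest at 37.7 FPKM in Voyager and 28.1 FPKM in Albion, PvVIT1 is close to the axis, and the Voyager bar is the taller one for every gene except PvVIT1.

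The order of the genes by level differed in the position of PvVIT9. In Voyager it was PvVIT10, PvVIT9, PvVIT2, PvVIT3, PvVIT11 and PvVIT1, and in Albion it was PvVIT10, PvVIT2, PvVIT3, PvVIT9, PvVIT11 and PvVIT1. PvVIT9 thus held place 2 in Voyager and place 4 in Albion. With 1 pooled value per genotype, it cannot be said which neighbours in this order differ beyond the spread between replicates. The closest neighbours were PvVIT9 and PvVIT2 in Voyager, at 18.9 and 18.0 FPKM. In Albion, the closest were PvVIT3 and PvVIT9, at 11.8 and 10.4 FPKM.

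Summed over the 6 genes, VIT transcript came to 96.9 FPKM in Voyager and 71.2 FPKM in Albion, a ratio of 1.36. PvVIT10 alone carried 38.9% of this sum in Voyager and 39.5% in Albion. PvVIT9 carried 19.5% in Voyager and 14.6% in Albion, which was the largest shift of any member. The chromosome 2 group carried 34.1% of the sum in Voyager and 38.1% in Albion, and PvVIT11 carried 7.49% and 7.91%. By annotation, the 2 family proteins summed to 56.6 FPKM in Voyager and 38.5 FPKM in Albion, a ratio of 1.47. The 4 genes annotated as VIT1 summed to 40.3 FPKM in Voyager and 32.7 FPKM in Albion, a ratio of 1.23.

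Within the chromosome 2 group, the adjacent genes PvVIT1 and PvVIT2 had very different levels. PvVIT2 had 18.0 FPKM in Voyager and 13.7 FPKM in Albion, and PvVIT3 had 13.9 FPKM in Voyager and 11.8 FPKM in Albion. The level of PvVIT2 was therefore 15.4 times that of PvVIT1 in Voyager and 8.49 times in Albion, although their loci are only 3.16 kb apart. The more distant PvVIT3 was close to PvVIT2, which exceeded it 1.29 times in Voyager and 1.16 times in Albion. PvVIT2 and PvVIT3 made up 54.4% and 42.1% of the group in Voyager and 50.4% and 43.6% in Albion, and PvVIT1 made up 3.54% in Voyager and 5.94% in Albion. The 3 genes carry the same annotation, and how reads shared between similar copies were divided among them is not given in the sources used here, so the split between the copies is uncertain.

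PvVIT1 was the only member with a lower value in Voyager than in Albion, with a log2 difference of -0.27. PvVIT2 had a log2 difference of 0.37 and PvVIT3 of 0.21. The direction of PvVIT1 rests on values of 1.17 FPKM in Voyager and 1.61 FPKM in Albion. Because of this low level its log2 difference depended on the pseudocount, and it was -0.46 with none added.

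The stretch between PvVIT2 and PvVIT3 holds 5 listed genes, each annotated as a disease resistance protein of the TIR-NBS-LRR class, a family of intracellular immune receptors. These are Phvul.002G323000, Phvul.002G323200, Phvul.002G323300, Phvul.002G323400 and Phvul.002G323500. Their levels ran from 3.64 to 6.19 FPKM in Voyager and from 3.02 to 5.31 FPKM in Albion, below those of PvVIT2 and PvVIT3 and above that of PvVIT1. All 5 had the higher value in Voyager, with log2 differences from 0.14 to 0.32. Centred on the median of all genes averaging at least 1 FPKM, these ran from 0.08 to 0.26. After scaling to the same summed FPKM they ran from -0.01 to 0.17, with 4 above 0. PvVIT3, at 0.21, lay within the range of these immune receptor genes, PvVIT2 lay just above it and PvVIT1 lay below it. The listed gene before the group, heat shock transcription factor A8 (Phvul.002G322700), had 5.75 FPKM in Voyager and 4.25 FPKM in Albion, and its log2 difference of 0.36 was close to that of PvVIT2. After the group, the small nuclear ribonucleoprotein gene Phvul.002G324000 had 72.9 FPKM in Voyager and 65.8 FPKM in Albion.

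**Figure D2:**
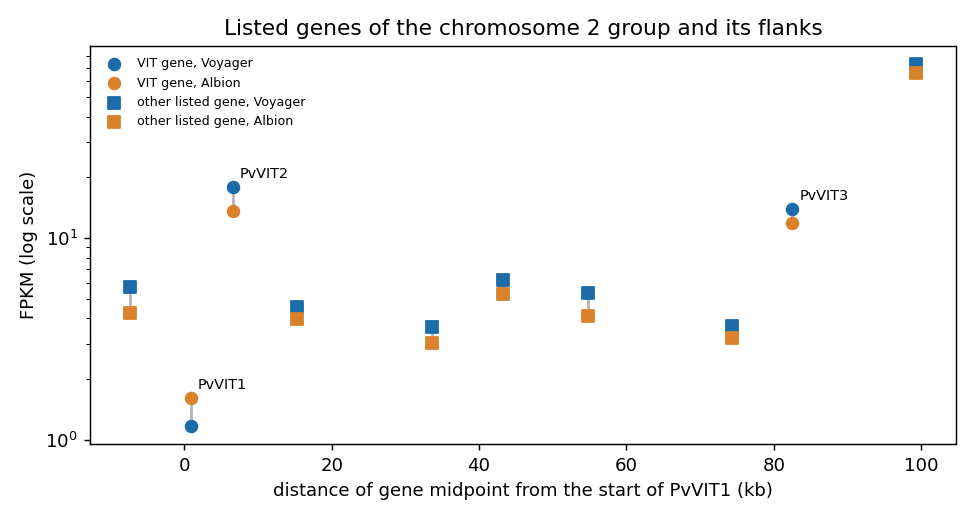
FPKM on a log axis against the distance of each gene's midpoint from the start of PvVIT1 in kb, for the 3 VIT genes of chromosome 2 (circles), the 5 immune receptor genes between PvVIT2 and PvVIT3 and 1 flanking gene on each side (squares), in Voyager and Albion. PvVIT1 lies lowest, at 1.17 FPKM in Voyager and 1.61 FPKM in Albion, next to PvVIT2 at 18.0 and 13.7 FPKM, and is the single gene of the plot with the lower value in Voyager.

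Among the single copies, PvVIT9 on chromosome 4 had the largest difference of the 6 genes. It had 18.9 FPKM in Voyager and 10.4 FPKM in Albion, a ratio of 1.82 and a log2 difference of 0.81. Of all listed genes, 3.87% had a larger difference towards Voyager. PvVIT10 on chromosome 7 had a log2 difference of 0.41, and 12.4% of all listed genes had a larger one. PvVIT11 on chromosome 8 had 7.26 FPKM in Voyager and 5.63 FPKM in Albion, with a log2 difference of 0.32, and 17.9% of the listed genes had a larger one. Summed, the single copies reached 63.9 FPKM in Voyager and 44.1 FPKM in Albion, a ratio of 1.45, and the chromosome 2 group reached 33.0 and 27.1 FPKM, a ratio of 1.22.

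In the deposited values, the listed neighbours of the single copies had differences smaller in size than the VIT genes beside them. PvVIT9 lies alone, with 78.9 kb to the splicing factor gene Phvul.004G096300 (log2 difference 0.13) and 105.3 kb to the kelch repeat gene Phvul.004G096600 (-0.20). PvVIT10 lies between the transcription factor gene bZIP52 (Phvul.007G079000, -0.37) and the ubiquitin hydrolase gene Phvul.007G079300 (0.25). PvVIT11 is close to both neighbours, 0.844 kb from the SET domain gene Phvul.008G069900 (0.02) and 2.18 kb from the UDP-galactose transporter gene UTR2 (Phvul.008G070100, -0.26). The 3 single copies kept the higher value in Voyager after scaling to the same sum, while of the 6 genes beside them 1 did, Phvul.007G079300. Of all 8 flanking genes, with those of the chromosome 2 group, 4 were higher in Voyager after centring and 2 after scaling to the same sum. Under this scaling the median difference of all listed genes was -0.11, so most listed genes had the lower value in Voyager. The order by size held under this scaling for PvVIT9 (0.63, against -0.03 for Phvul.004G096300 and -0.39 for Phvul.004G096600). It turned for PvVIT10, at 0.22 against -0.49 for bZIP52 (Phvul.007G079000), and for PvVIT11, at 0.15 against -0.16 for Phvul.008G069900 and -0.45 for UTR2 (Phvul.008G070100).

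The difference of the 6 VIT genes was set against all listed genes. The median log2 difference was 0.34 over the 6 VIT genes and 0.07 over all listed genes. A higher value in Voyager was found for 5 of the 6 VIT genes and for 61.9% of all listed genes. A difference of at least 1.5-fold on the log2(FPKM + 1) scale was reached by 1 VIT gene, PvVIT9, and by 11.2% of all listed genes, 6.95% towards Voyager and 4.24% towards Albion. Scaling to the same summed FPKM over all genes turned this split to 4.67% and 6.68%, and PvVIT9 was still past the threshold. A share of 1 in 6 genes is near the background. None of the 6 VIT genes reached 2-fold, against 4.31% of all listed genes. Summed FPKM over all genes was 950155 in Voyager and 830694 in Albion. Such a sum is weighted towards the most abundant genes, and the highest value of any gene was 59911 FPKM in Voyager and 13481 FPKM in Albion. How far single abundant genes drive this scaling was not examined. Scaling to the same sum moved the median of all genes to -0.11. The VIT median then became 0.17, which is 0.28 above the median of all genes, as it was before scaling. Such scaling shifts most differences by a similar amount, so this distance could hardly change and is not a check.

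**Figure D3:**
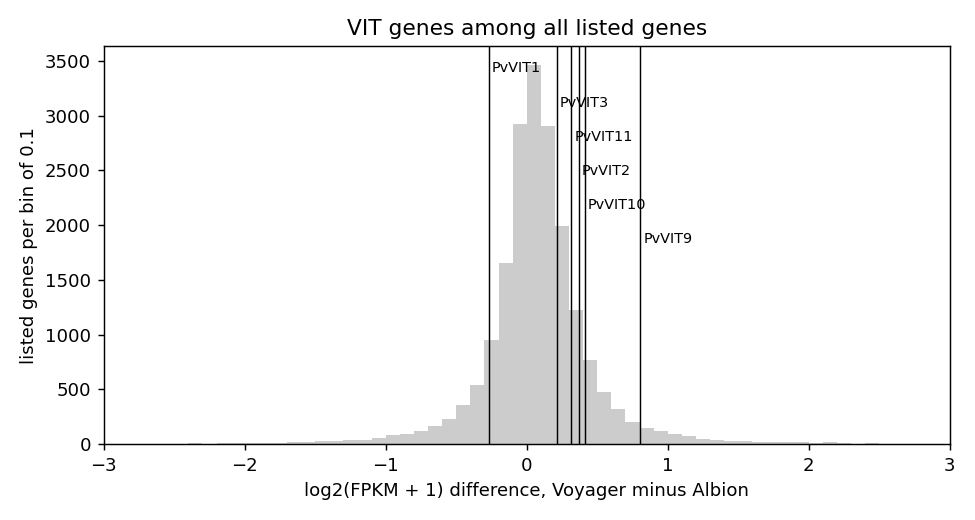
Number of listed genes (vertical axis) per bin of 0.1 of the log2(FPKM + 1) difference, Voyager minus Albion (horizontal axis, from -3 to 3, with 21 genes below and 29 genes above this range not drawn), with a line for each VIT gene. PvVIT1 at -0.27 lies left of the peak, PvVIT3, PvVIT11, PvVIT2 and PvVIT10 lie between 0.21 and 0.41 on its right shoulder, and PvVIT9 lies at 0.81 in the right tail.

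Levels like those of the VIT genes were common. Within 0.1 of a member on the log2(FPKM + 1) scale in both genotypes lay 66 other listed genes for PvVIT1, 105 for PvVIT2, 182 for PvVIT3, 52 for PvVIT10 and 120 for PvVIT11. For PvVIT9 there were 14 such genes, fewer than for any other member.

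Other genes that handle iron and zinc were found by words of their annotation, 72 genes in 10 families besides VIT. Their median log2 difference was 0.09, against 0.34 for the VIT genes. The higher value was in Voyager for 48 of the 72, and for 61.9% of all listed genes. After centring on the median of all genes averaging at least 1 FPKM, the median of the 72 genes was 0.02, against 0.28 for the VIT genes. Of the 72, 41 were then higher in Voyager. After scaling to the same sum, the median of the 72 genes was -0.07, against 0.17 for the VIT genes, and 28 of the 72 were higher in Voyager. At least 1.5-fold was reached by 9 genes towards Voyager and by 4 towards Albion, and after scaling by 6 and 4. Over all listed genes the shares were 6.95% and 4.24%, and 4.67% and 6.68% after scaling. The 9 genes towards Voyager were 4 ZIP transporters, 2 zinc induced facilitators and 1 gene each matched as ferritin, ferric reductase and cation efflux. The largest difference of the 72, named after its value was seen, was that of zinc induced facilitator-like 2 (Phvul.002G108300), with 19.4 FPKM in Voyager and 0.82 FPKM in Albion and a log2 difference of 3.48. Also towards Voyager was the ZIP gene zinc transporter 5 (Phvul.006G003300), with 7.9 FPKM in Voyager and 1.66 FPKM in Albion. The 4 genes towards Albion, likewise named after their values were seen, were NRAMP6 (Phvul.010G160800, 0.49 FPKM in Voyager and 2.36 FPKM in Albion), ferric reduction oxidase 7 (Phvul.006G133600, 29.5 and 47.8 FPKM), zinc induced facilitator-like 1 (Phvul.011G189900, 8.11 and 18.0 FPKM) and heavy metal ATPase 5 (Phvul.002G156800, 4.83 and 10.6 FPKM).

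Ferritin is the plastid protein that stores iron in a protein shell, a store apart from the vacuole served by VIT. The more abundant of the ferritin 4 genes, Phvul.008G221200, had 266 FPKM in Voyager and 138 FPKM in Albion, a log2 difference of 0.94. This exceeded the 0.81 of PvVIT9, at a level of more than the summed VIT transcript in each genotype. NRAMP3 is known in Arabidopsis to bring iron back out of the vacuole, and its more abundant bean homologue, Phvul.002G014300, had 61.6 FPKM in Voyager and 60.9 FPKM in Albion. Its log2 difference of 0.02, or -0.17 after scaling to the same sum, was smaller than those of the VIT genes other than PvVIT1. OPT3 (Phvul.003G086500), which acts in phloem loading of iron in Arabidopsis, had 103 FPKM in Voyager and 85.3 FPKM in Albion, and YSL6 (Phvul.001G088900) had 64.9 and 60.4 FPKM. The log2 difference of OPT3 was 0.27, and 0.08 after scaling, and that of YSL6 was 0.10, and -0.09 after scaling.

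Families here are the genes matched by annotation words and can be incomplete. The matched heavy metal ATPases, which pump zinc or copper, had a median log2 difference of -0.11, with 1 of 6 genes higher in Voyager. After scaling to the same sum these were -0.30 and 0 of 6. The study lists further expressed heavy metal ATPases that were not matched, some of them with higher values in Voyager. The ZIP transporters, which bring zinc and iron into the cytosol, had a median of 0.15, with 12 of 13 higher in Voyager. After centring the ZIP median was 0.08 with 10 of 13 higher, and after scaling it was -0.02 with 5 of 13. Medians were 0.24 for 8 oligopeptide transporters, 0.19 for 5 zinc induced facilitators, 0.14 for 4 genes matched by the word ferritin, 0.10 for 9 cation efflux genes and 0.10 for 5 yellow stripe-like genes. They were 0.04 for 13 ferric reductases, 0.02 for 7 NRAMP genes and -0.05 for 2 iron-regulated genes. After scaling, the medians of the oligopeptide transporters (0.06) and the zinc induced facilitators (0.02) were above 0, and those of the other families in this list were between -0.05 and -0.18. After centring, those of the genes matched by the word ferritin (0.07), the cation efflux genes (0.04) and the yellow stripe-like genes (0.04) were above 0 too. Those of the ferric reductases, NRAMP genes and iron-regulated genes were then below 0. The VIT median of 0.34 was above each of these as matched. It was below the 0.57 of the 2 ferritin 4 genes when the ribonucleotide reductase-like genes that share the word were left out. Scaling shifts all these medians by similar amounts, and it left the place of the VIT median as it was. The ranking covers the 6 VIT genes described here and may differ with other members. The study reports further expressed VIT genes with little difference between the genotypes.

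**Figure D4:**
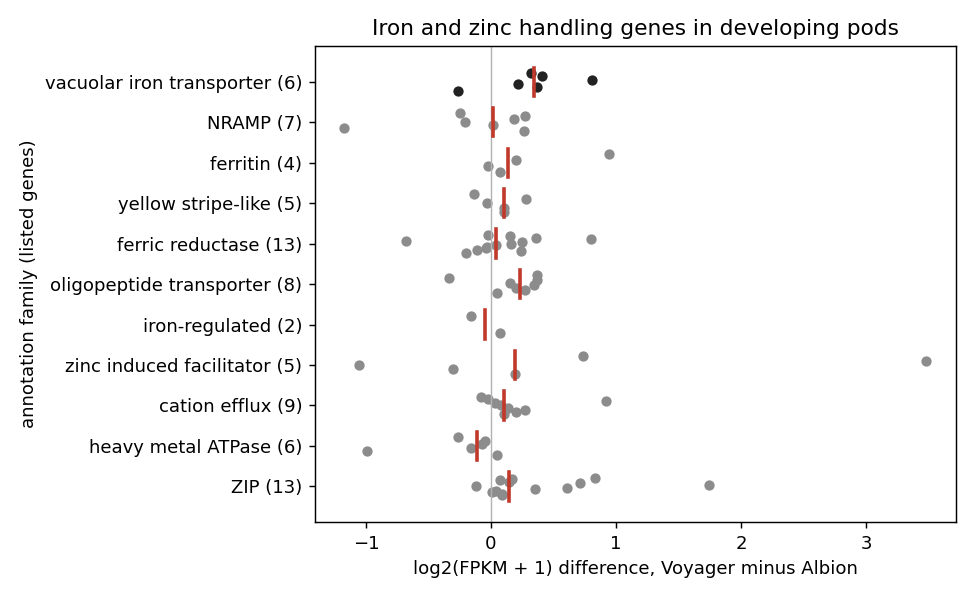
log2(FPKM + 1) difference, Voyager minus Albion (horizontal axis), of each listed gene (points) of the VIT family (top, black) and of 10 other iron and zinc handling families (grey), with the number of genes in brackets and the family median as a red bar. The median of the 6 VIT genes, 0.34, lies farthest to the right. Genes of the zinc induced facilitator, ZIP, ferritin and cation efflux families extend beyond PvVIT9 at 0.81. Centred on the median of all genes averaging at least 1 FPKM, the VIT median would lie at 0.28 and the ZIP median at 0.08. Scaled to the same sum, the VIT median would lie at 0.17 and the ZIP median at -0.02.

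Whole pods hold several tissues, and a smaller share of a tissue cannot be told apart from less transcript per cell in it. The study states that seed made up a larger part of the pod weight in Albion than in Voyager. Lists for seed (152 genes), photosynthesis of the green pod wall (84 genes) and the secondary cell wall (27 genes) were made from annotation words. The words are broad, among them cupin and seed storage for seed, and cellulose synthase family protein for the secondary wall. Whether each matched gene is particular to its tissue was not examined. Their summed levels were 28477 FPKM in Voyager and 26273 FPKM in Albion for seed, 19176 and 21168 FPKM for photosynthesis, and 931 and 819 FPKM for the secondary wall. The median log2 difference was 0.11 for the seed list, -0.05 for the photosynthesis list and 0.20 for the secondary wall list. In the same order, the medians were 0.04, -0.12 and 0.135 after centring, and -0.05, -0.24 and 0.09 after scaling to the same sum. A higher value in Voyager was found for 91, 38 and 18 genes of these lists, and for 61.9% of all listed genes. In the seed list, 1 gene was at 0 in Voyager and 2 in Albion. Their part in the VIT values was not tested.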

How the data were processed

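Pod RNA of 6 samples, 3 of Voyager and 3 of Albion, was sequenced by the authors as paired-end reads. Reads were cleaned by the authors with the FASTX-Toolkit, then aligned with TopHat 1.4.1 on a Bowtie 0.12.7 index of the v1.0 genome and turned into FPKM with Cufflinks 1.3.0 and Cuffdiff. The deposited FPKM values are given to 2 decimals as 1 pooled value per gene and genotype. Cuffdiff combined the replicates, so no sample was compared on its own, and the depth behind a value is unknown. The fold changes, test statistics, p-values and q-values of the authors' own comparison are also in the table and were not used.

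Fold changes were computed as log2(FPKM + 1), Voyager minus Albion, in Python 3.11.15 with numpy 2.4.6 and pandas 2.3.3, and figures were drawn with matplotlib 3.10.9. Without replicate values, no test was made. The computation was checked on simulated data. Percentiles are over all 19598 listed genes. The text names the 6 members, the genes inside the chromosome 2 group and the nearest listed gene on each side of a locus. Genes from families of iron and zinc handling, found by annotation words, are named by the highest mean FPKM or, after values were seen, by their difference. The genes of highest mean FPKM of the ZIP, cation efflux, ferric reductase, heavy metal ATPase and iron-regulated families are not named. No annotation held the words searched for nicotianamine synthase. Alternatives were pseudocounts of 0.1 and 0, centring, scaling to the same sum, a mean of at least 1 FPKM and a 2-fold threshold. A narrower ferritin and ferric reductase list was added after seeing the data. So were the centring and scaling of other lists and neighbouring genes, and the scaling of the 1.5-fold count. The members and lists were chosen with earlier results of these data known. Protein and promoter sequences of the VIT genes were not analysed here.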

Additional observations from a re-analysis of the deposited data

How the results depend on the processing

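Each of the 6 VIT genes kept its direction under all 4 alternatives of pseudocount and scaling, 24 values in all. A change of pseudocount cannot reverse a direction, and centring and scaling moved values towards Albion. Only the 5 genes higher in Voyager could therefore have reversed, under centring or scaling to the same sum. The median log2 difference of the 6 genes, 0.34 as reported, was 0.38 with a pseudocount of 0.1 FPKM and 0.38 with none, 0.28 after centring on the median of all genes averaging at least 1 FPKM, and 0.17 after scaling to the same sum. PvVIT3 came closest to 0, at 0.04 after scaling to the same sum. With a 2-fold threshold in place of 1.5-fold, 0 VIT genes and 4.31% of all listed genes were past it. The share of all listed genes at least 1.5-fold apart was 10.4% among genes averaging at least 1 FPKM, 16.1% with a pseudocount of 0.1 FPKM 10.7% after centring and 11.4% after scaling to the same sum, with 1 VIT gene, PvVIT9, past it each time. No paired analysis was possible because the replicates of a genotype are pooled in 1 value, and for the same reason no replicate could be left out. The spread between pots limits every comparison here and is unknown.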
